A study of Mus musculus with 6 samples.

Results

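The mRNAs of the DNA replication machinery were followed from total RNA into the RNA recovered with Staufen2 in a podocyte cell line. The set comprised 46 genes chosen by name for their part in replication licensing, the replicative helicase, the polymerases, the clamp loader, Okazaki fragment joining and nucleotide supply, out of 19938 genes measured, and all 46 were found. Their values did not enter the rule of choice, though earlier results of these data were known when the list was made. Podocytes are the epithelial cells that wrap the capillaries of the kidney glomerulus, and the cells were an immortalized mouse line, propagated at 33 °C with gamma-interferon and differentiated at 37 °C without it. The input group was total RNA of these cells (3 arrays), and the pulldown group was RNA co-precipitated from their cytoplasmic lysate with an antibody against Staufen2 (3 arrays), a protein that binds double-stranded stretches of mRNAs and is known for their transport and decay. No other genotype, treatment or time is given, both groups come from the same line, and 100 ng of RNA was labelled for each array whatever the yield of the pulldown. Values therefore describe a gene's share of the RNA relative to the other genes on the array. The samples include no precipitation with an unrelated antibody. Whether the replicates were separate cultures is not stated in the labels, so the spread behind each p-value is that between these arrays and may be technical.

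Replication starts where the origin recognition complex, with Cdc6 and Cdt1, loads the MCM2-7 helicase onto DNA in G1. In S phase Cdc45 and GINS join MCM2-7 to form the active helicase, primase and polymerase alpha lay down primers, the clamp loader sets the ring-shaped clamp PCNA around them, and polymerases epsilon and delta extend them while replication protein A covers single-stranded DNA. Ribonucleotide reductase and thymidylate synthase supply deoxynucleotides, and podocytes that have matured in the kidney divide little.

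The deposited values are log2 expression values per probe set. Array medians lay between 6.53 and 6.54, and the median standard error of a difference was 0.039 over all genes and 0.041 over the replication genes. Of 10 podocyte markers measured, 6 stood above the median probe set level, 6.54, in at least 1 group, among them Wt1 with an input mean of 9.57 and Synpo with 8.29. The slit diaphragm gene Nphs1 (6.30) and Podxl (6.04) lay below it, where signal can be background. Of the markers of other cells, 1 of 6 endothelial, 4 of 6 mesangial and fibroblast, 5 of 6 tubular and parietal and 2 of 6 immune genes lay above that median, with Pdgfrb at 11.45, Pax8 at 11.39, Ehd3 at 10.34 and Col1a1 at 10.91 in the input. The mean level of the podocyte list was 8.44 to 8.50 in the input arrays and 8.72 to 8.73 in the pulldown arrays. The other lists stood, input first, at 6.37 to 6.41 and 6.48 to 6.51 (endothelial), 8.13 to 8.20 and 8.26 to 8.36 (mesangial and fibroblast), 7.80 to 7.84 and 7.93 to 7.96 (tubular and parietal) and 6.24 to 6.26 and 6.11 to 6.15 (immune), and their part in the results below was not tested. For the mRNA of Stau2 itself the input mean was 10.78 ± 0.018 and the pulldown mean 10.75 ± 0.018 (± SD, n = 3), a difference of -0.02 ± 0.027 (SE, limma adjusted p = 0.52), which does not check the pulldown, since the protein was captured. Stau1 was higher by 0.19 ± 0.029 (adjusted p = 0.00088).

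The comparison asked which replication mRNAs had a greater or lesser share of the RNA recovered with the Staufen2 antibody than of the input. The pulldown came from cytoplasmic lysate and the input was total RNA, so binding, location in the cytoplasm and unspecific recovery cannot be told apart. The set split. The largest positive difference was that of Rpa1, the large subunit of replication protein A, at 2.16-fold higher, and the largest negative one was that of Rpa3, the small subunit of the same complex, at 1.85-fold lower. By limma's moderated test at a Benjamini-Hochberg adjusted p under 0.05 over all genes, 17 of the 46 were higher in the pulldown, 15 were lower and 14 did not pass. Of all 19938 genes, 31.3% were higher and 17.3% lower, and 48.7% were called in either direction, against 69.6% of the replication genes. A gene was counted as above the median level if its input mean or its pulldown mean exceeded 6.54. Among the 12162 genes above the median level, which include 45 of the 46, 45.9% were called higher and 26.8% lower, 72.6% in all. A gene could enter through its higher group alone, as Plce1 did (input mean 6.06, pulldown mean 6.72). This filter can therefore raise the shares called, here and where they are used below, and by how much was not tested. The share of replication genes called was thus near that of the genes above the median level, and 37.0% of them were higher and 32.6% lower. Level was not matched beyond that filter, and the median input mean of the 46 was 9.74. The median difference of the set was -0.02 (0.0071 without pulldown replicate 2), against 0.04 over all genes and 0.09 over those above the median level. The 3 pulldown values lay apart from the 3 input values in 37 of the 46 genes, 18 above and 19 below. Over all genes 55.9% were apart in this way, 36.4% above and 19.6% below. The share among the genes above the median level was not determined, so this comparison is not matched for level.

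**Figure D1:**
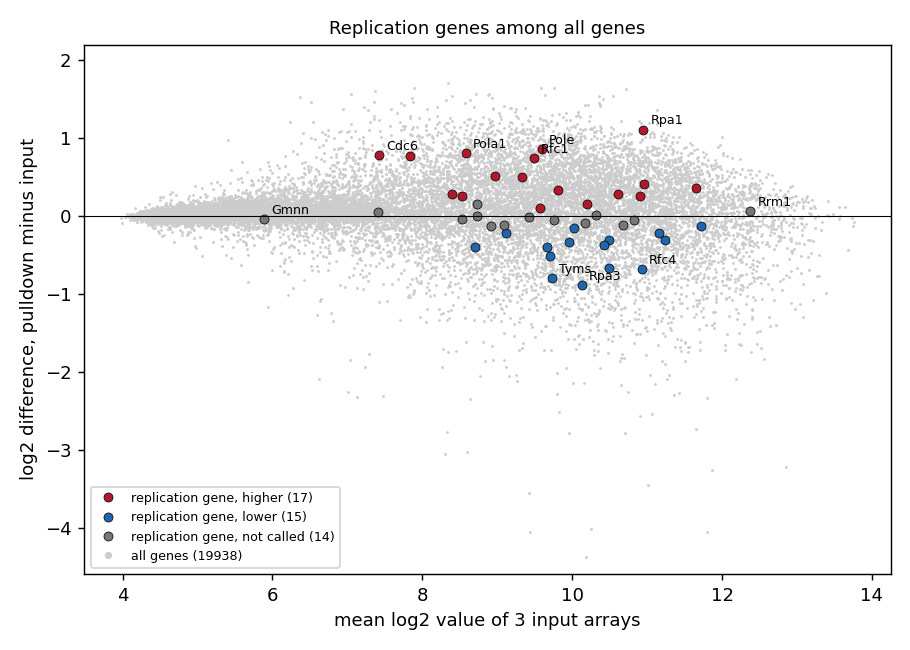
Mean log2 value of the 3 input arrays (x) against the log2 difference of pulldown minus input (y) for all 19938 genes (grey) and the 46 replication genes (coloured by call). The replication genes lie on both sides of 0, from Rpa3 at -0.89 to Rpa1 at 1.11, and Gmnn alone lies in the dim range.

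Scaling bears on the smaller differences. After cyclic loess, which evens out differences that follow the signal level, 14 of the 46 were higher and 24 lower, and the median difference was -0.11. Over all genes that scaling gave 25.7% higher and 22.9% lower. The 8 genes with a difference above 0.7 in either direction kept their direction and their call under it.

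**Figure D2:**
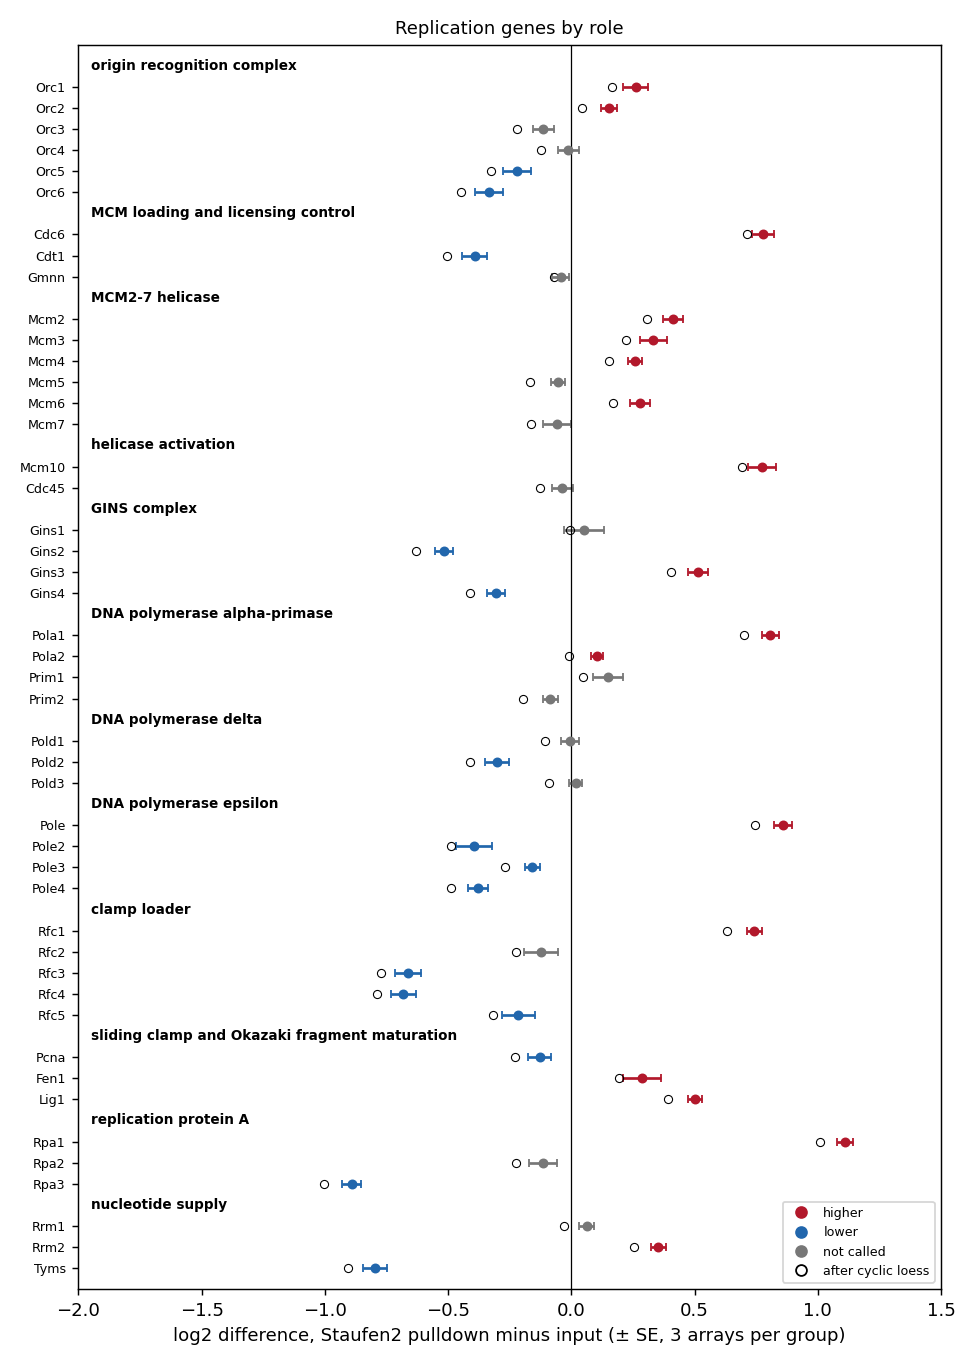
Log2 difference of pulldown minus input for each of the 46 genes, grouped by role (filled points with SE bars, 3 arrays per group, coloured by call; open circles, the same difference after cyclic loess). Polymerase epsilon, the clamp loader and replication protein A each hold 1 gene far to the right and others to the left of 0.

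A feature that the choice of genes did not use is in their promoters. Many replication genes are known targets of the E2F transcription factors, whose sites carry the letters TTTCGCGC, TTTGGCGC, TTTCCCGC or TTTGCCGC. These 8-letter runs were searched on both strands of the RefSeq promoter windows (GRCm38.p6, 250 bases before to 50 after the start), where 1 stretch can match on each strand. Of 38 replication genes with a window, 16 (42.1%) held at least 1 match, against 2.6% of 27025 genes and 4.69% of the genes above the median level with a window. A match was found in 7 of 15 genes called higher, 4 of 13 called lower and 5 of 10 not called. Promoters are not part of the RNA on the arrays, and a match is a description and not a site of binding. The stretches below, all upstream of the start and written along the gene's own strand, are shown because they come from genes on both sides of the comparison. Cdc6, Mcm6 and Pola1 were higher in the pulldown and Pole4 and Rfc3 lower, and capitals mark the matches.
Cdc6 (chr11:98907963-98908082, plus strand): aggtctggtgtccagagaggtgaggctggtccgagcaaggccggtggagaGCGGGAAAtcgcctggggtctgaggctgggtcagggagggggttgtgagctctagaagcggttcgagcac
Mcm6 (chr1:128359745-128359865, minus strand): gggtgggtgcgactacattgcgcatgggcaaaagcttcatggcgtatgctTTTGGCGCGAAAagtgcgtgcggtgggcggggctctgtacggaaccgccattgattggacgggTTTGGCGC
Pola1 (chrX:93632224-93632343, minus strand): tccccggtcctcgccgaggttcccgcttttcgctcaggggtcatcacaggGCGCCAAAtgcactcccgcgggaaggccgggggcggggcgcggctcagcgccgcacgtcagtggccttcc
Pole4 (chr6:82652875-82652994, minus strand): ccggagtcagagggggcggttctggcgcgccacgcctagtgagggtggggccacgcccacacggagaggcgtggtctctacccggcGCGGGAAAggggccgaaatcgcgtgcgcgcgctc
Rfc3 (chr5:151651209-151651328, minus strand): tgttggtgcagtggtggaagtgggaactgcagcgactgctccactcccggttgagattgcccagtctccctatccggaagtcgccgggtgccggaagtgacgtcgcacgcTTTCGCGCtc
The first matched base lay 138 bases before the start in Cdc6, 110 in Mcm6, 138 in Pola1, 34 in Pole4 and 10 in Rfc3. In Mcm6 matches on both strands overlap in a single stretch, and a further match follows closer to the start.

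Of the licensing genes, the 6 subunits of the origin recognition complex, which marks origins, differed little and in both directions. Orc1, the subunit that binds ATP together with its partners and is known to be cell-cycle regulated, read 8.54, 8.44 and 8.60 in the input and 8.71, 8.83 and 8.82 in the pulldown, a difference of 0.26 ± 0.050 (log2, SE; limma adjusted p = 0.0033). Orc6, the smallest subunit, read 9.87, 9.99 and 10.02 in the input and 9.59, 9.57 and 9.72 in the pulldown, a difference of -0.33 ± 0.055 (adjusted p = 0.0014). The 2 genes thus moved apart, each with no overlap between groups. Orc2 was higher by 0.15 ± 0.032 (adjusted p = 0.0049), which did not hold after cyclic loess (0.04, adjusted p = 0.33). Orc5 was lower, at -0.22 ± 0.056 (adjusted p = 0.013), a call that ended without input replicate 1 (adjusted p = 0.058) or input replicate 3 (adjusted p = 0.059). Orc3 (-0.11, unadjusted 95% interval -0.22 to -0.01) and Orc4 (-0.01, -0.11 to 0.09) did not pass. Orc3 was called lower after cyclic loess (-0.22) and without pulldown replicate 3 (-0.15, adjusted p = 0.023).

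The 2 loading factors of MCM2-7 lay on opposite sides. Cdc6, the ATPase that brings the helicase to the origin, read 7.38, 7.43 and 7.44 in the input and 8.12, 8.28 and 8.18 in the pulldown. It was 1.71-fold higher, with a log2 difference of 0.78 ± 0.046 (limma adjusted p = 4.5e-06). Its partner Cdt1 read 9.66, 9.58 and 9.75 in the input and 9.34, 9.23 and 9.25 in the pulldown, 1.31-fold lower at -0.39 ± 0.051 (adjusted p = 0.00039). Gmnn encodes geminin, the inhibitor of Cdt1, and read 5.82 to 5.94 on all 6 arrays, below the median level, so that its difference of -0.04 says little.

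The MCM2-7 ring, the motor of the replicative helicase, had no subunit called lower. Mcm2, Mcm3, Mcm4 and Mcm6 were higher and Mcm5 and Mcm7 did not pass. Mcm2 went from 10.95, 11.00 and 10.94 in the input to 11.37, 11.31 and 11.44 in the pulldown, a difference of 0.41 ± 0.039 (limma adjusted p = 6.3e-05). Mcm3 was higher by 0.33 ± 0.056, Mcm6 by 0.28 ± 0.041 and Mcm4 by 0.26 ± 0.029 (adjusted p = 0.0016, 0.00076 and 0.00016). The 4 increases were modest, at most 1.33-fold, and remained called after cyclic loess. Mcm5 read 9.76, 9.76 and 9.76 in the input and 9.71, 9.66 and 9.73 in the pulldown, and its difference of -0.06 had a 95% interval of -0.12 to 0.01. Mcm7 stood at -0.06 (-0.19 to 0.08), or 0.0075 without pulldown replicate 2. After cyclic loess both were called lower, at -0.17 and -0.16.

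Among the factors that turn the loaded ring into a working helicase, Mcm10, which is needed for helicase activation and is no part of the ring, read 7.84, 7.74 and 7.92 in the input and 8.64, 8.51 and 8.67 in the pulldown. It was 1.71-fold higher (0.77 ± 0.057, limma adjusted p = 1.5e-05). Cdc45, which binds the ring directly, did not pass (-0.04, 95% interval -0.13 to 0.06), and was called lower after cyclic loess (-0.13). The 4 GINS subunits, small proteins that bind each other in equal number, were not alike. Gins2 read 9.70, 9.70 and 9.72 in the input and 9.19, 9.12 and 9.25 in the pulldown, 1.43-fold lower at -0.52 ± 0.037 (adjusted p = 1.3e-05). Gins3 read 8.95, 8.92 and 9.05 in the input and 9.53, 9.46 and 9.47 in the pulldown, 1.43-fold higher at 0.51 ± 0.042 (adjusted p = 2.5e-05). The groups did not overlap in either gene. Gins4 was lower, at -0.31 ± 0.035 (adjusted p = 0.00018), and Gins1 did not pass (0.05, interval -0.14 to 0.25), with input replicate 2 at 7.22 below its other input arrays at 7.55 and 7.48.

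The catalytic subunits of the 3 polymerases were not alike. Pola1, the catalytic subunit of polymerase alpha, read 8.60, 8.53 and 8.61 in the input and 9.35, 9.42 and 9.39 in the pulldown, 1.75-fold higher (0.81 ± 0.034, limma adjusted p = 1.1e-06). Pole, the catalytic subunit of the leading-strand polymerase epsilon, read 9.61, 9.56 and 9.61 in the input and 10.48, 10.39 and 10.48 in the pulldown, 1.81-fold higher (0.86 ± 0.036, adjusted p = 9.9e-07). Both stood clear of all their input values. Pold1, the catalytic subunit of the lagging-strand polymerase delta, differed from both. It read 8.71, 8.70 and 8.79 in the input and 8.76, 8.69 and 8.73 in the pulldown, a difference of -0.01 with a 95% interval of -0.09 to 0.08, and -0.10 (adjusted p = 0.038) after cyclic loess.

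Among the 8 other listed subunits of these polymerases, those of primase included, 4 were lower and only Pola2 was higher. Pola2, the B subunit of polymerase alpha, was higher by 0.10 ± 0.025 (limma adjusted p = 0.011), but stood at -0.01 after cyclic loess. The primase subunits Prim1 (0.15) and Prim2 (-0.09) did not pass (adjusted p = 0.078 and 0.053). Prim2 was called lower after cyclic loess (-0.20, adjusted p = 0.0006), and also without input replicate 2 (-0.10, adjusted p = 0.041) and without pulldown replicate 3 (-0.10, adjusted p = 0.045). All 3 accessory subunits of polymerase epsilon were lower. Pole2, the B subunit, read 8.68, 8.65 and 8.77 in the input and 8.35, 8.14 and 8.43 in the pulldown (-0.39 ± 0.074, adjusted p = 0.0028). The small histone-fold subunits Pole3 and Pole4 were lower, at -0.16 ± 0.030 and -0.38 ± 0.040 (adjusted p = 0.0032 and 0.00011). Pole4, whose promoter stretch is printed above, read 10.43, 10.48 and 10.37 in the input and 10.00, 10.09 and 10.06 in the pulldown. Of polymerase delta, the B subunit Pold2 was lower, at -0.30 ± 0.049 (adjusted p = 0.0013), and Pold3 did not pass (0.02, interval -0.04 to 0.08). Pold3 turned to -0.09 (adjusted p = 0.022) after cyclic loess. The smallest subunit, Pold4, belongs to the wider list described last and was lower by more than any of these, from 10.87, 10.75 and 10.88 in the input to 9.82, 9.70 and 9.73 in the pulldown (-1.08 ± 0.048, adjusted p = 1.3e-06).

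The clamp loader, a ring of 1 large and 4 small subunits that opens PCNA, split along that line. Rfc1, the large subunit, read 9.49, 9.47 and 9.50 in the input and 10.24, 10.26 and 10.19 in the pulldown, 1.67-fold higher (0.74 ± 0.029, limma adjusted p = 8.0e-07). Rfc4 read 10.88, 10.87 and 11.03 in the input and 10.19, 10.31 and 10.24 in the pulldown, 1.60-fold lower (-0.68 ± 0.052, adjusted p = 1.9e-05). Rfc3 read 10.53, 10.41 and 10.55 in the input and 9.85, 9.74 and 9.90 in the pulldown, 1.58-fold lower (-0.66 ± 0.054, adjusted p = 2.6e-05). In all 3 genes the groups lay well apart. Rfc5 was lower, at -0.21 ± 0.065 (adjusted p = 0.029). Its call ended without input replicate 1 or 3 (adjusted p = 0.11 each), pulldown replicate 2 (0.098) or pulldown replicate 3 (0.054). Rfc2 did not pass (-0.12, interval -0.29 to 0.04), with pulldown replicate 2 at 8.62 below the others at 8.87 and 8.88. After cyclic loess it was called lower (-0.23, adjusted p = 0.019).

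Replication protein A, which coats single-stranded DNA, held both ends of the range. Rpa1, its main DNA-binding subunit, read 10.98, 10.92 and 10.95 in the input and 12.09, 12.01 and 12.08 in the pulldown, a difference of 1.11 ± 0.033 (limma adjusted p = 3.2e-07). Rpa3, the smallest subunit, read 10.12, 10.10 and 10.16 in the input and 9.23, 9.18 and 9.30 in the pulldown, a difference of -0.89 ± 0.038 (adjusted p = 1.1e-06). Rpa2, the subunit phosphorylated after damage, lay between them at -0.12 (-0.25 to 0.02) and did not pass. After cyclic loess it was called lower (-0.22, adjusted p = 0.0071). Rpa1 was the only one of the 46 past 2-fold, a size that 1.67% of all genes reached upward and 2.01% downward. Rpa3 has a second, dimmer probe set, which was lower as well, from an input mean of 7.88 to a pulldown mean of 7.44, a difference of -0.44.

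**Figure D3:**
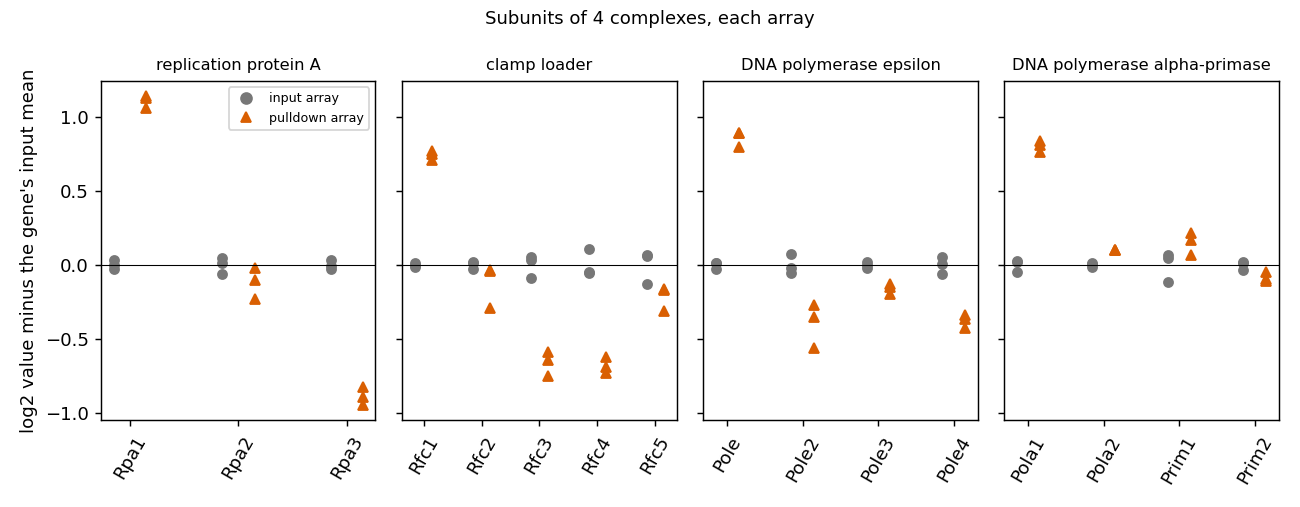
Log2 value of each array minus the gene's own input mean, for the subunits of replication protein A, the clamp loader, polymerase epsilon and polymerase alpha-primase (grey circles, 3 input arrays; orange triangles, 3 pulldown arrays). Rpa1, Rfc1, Pole and Pola1 rise clear of their input arrays, and Rpa3, Rfc3, Rfc4 and the accessory subunits of polymerase epsilon fall below theirs.

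The subunit that textbooks give as the largest of its complex was set against the mean of the others, array by array, so that the 2 groups of subunits come from the same RNA and a shift of the whole array cancels. This comparison was chosen after the values had been seen and has no test. Levels of different probe sets cannot be compared, so only the change between groups is read. In replication protein A, Rpa1 minus the others was 1.38, 1.36 and 1.30 in the input and 2.98, 3.00 and 2.90 in the pulldown, a change of 1.61. For Pole in polymerase epsilon the change was 1.17, and for Rfc1 in the clamp loader it was 1.16. Each of these 3 exceeds a factor of 2 in the ratio of large to small subunit mRNA. Smaller changes in the same direction were found for Pola1 (0.75), Orc1 (0.37), Mcm2 (0.26) and Pold1 (0.14). The value for Pold1 rests on Pold2 and Pold3 only. Pold4, at -1.08, is not among the 46 genes and did not enter it. Ribonucleotide reductase went the other way, with Rrm1 minus Rrm2 at 0.75, 0.75 and 0.69 in the input and 0.46, 0.36 and 0.49 in the pulldown, a change of -0.29. After cyclic loess the 8 changes ran from -0.29 to 1.62 in the same directions. GINS, also planned for this comparison, was left out, and no such change was worked out for it. Its subunits went both ways (Gins1 0.05, Gins2 -0.52, Gins3 0.51, Gins4 -0.31), but so did those of the origin recognition complex, which was kept. The omission came after the values had been seen. A count of 7 of 8 thus describes the complexes kept and not the full plan.

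**Figure D4:**
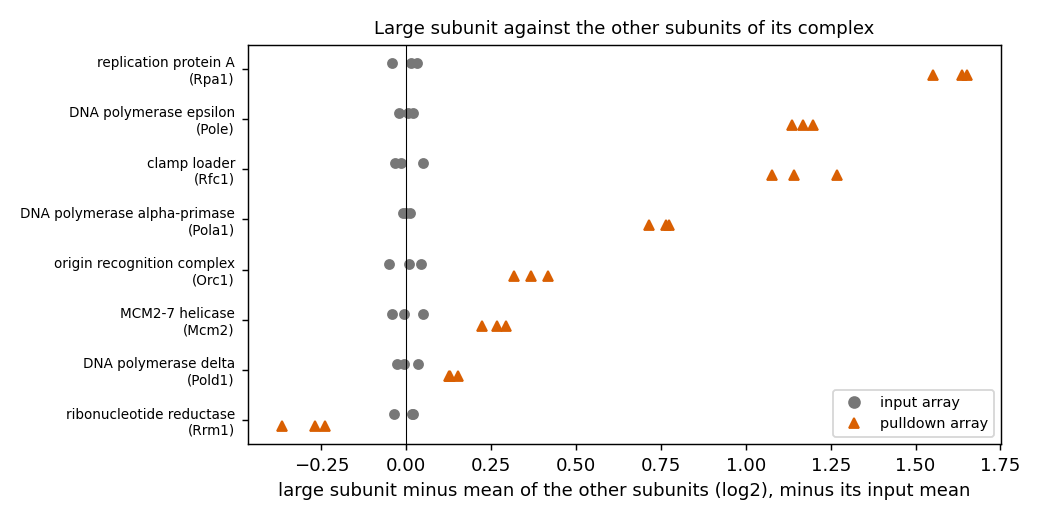
Large subunit minus the mean of the other listed subunits of its complex (log2), each array, set to 0 at the input mean (grey circles, 3 input arrays; orange triangles, 3 pulldown arrays). Pold4 is not in the mean for polymerase delta. The pulldown arrays lie to the right of the input arrays in 7 of the 8 complexes shown, by 0.14 to 1.61, and to the left in ribonucleotide reductase. GINS, also planned, was left out after the values had been seen.

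The size of the gene was set beside the differences as well. Spearman's rank correlation between a gene's genomic span, which includes introns, and its difference was 0.40 over the 46 genes (Pearson 0.39 with log10 of the span), against 0.36 over 18553 coding genes and 0.48 over the 11768 of them above the median level. Over the 61 genes of the wider list described last it was 0.51 (Pearson 0.57). These points share 6 arrays and are not independent, so no p is given. Of the 15 genes with the shortest spans (up to 11.1 kb), 2 were higher and 10 lower. Of the 16 in the middle (11.5 to 28.1 kb), 8 were higher and 2 lower, and of the 15 with the longest spans (31.5 to 328 kb), 7 were higher and 3 lower, where 45.9% and 26.8% of all genes above the median level were higher and lower. The median difference was -0.21, 0.13 and 0.02 in these groups, so the middle spans stood highest. The 3 lower genes among the longest spans were Tyms, Pole4 and Orc5, and the 2 higher genes among the shortest were Fen1 and Rrm2.

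Of the genes that hold the clamp or join Okazaki fragments, Lig1, the ligase that seals them, read 9.30, 9.33 and 9.36 in the input and 9.82, 9.86 and 9.83 in the pulldown, 1.42-fold higher (0.50 ± 0.028, limma adjusted p = 3.8e-06). Fen1, the nuclease that trims their flaps, was higher by 0.29 ± 0.077 (adjusted p = 0.017). Its call ended after cyclic loess (0.057) and without input replicate 1 (0.075), input replicate 2 (0.070), pulldown replicate 1 (0.070) or pulldown replicate 3 (0.069). Pcna, the clamp, was lower by a small amount, at -0.13 ± 0.045 (adjusted p = 0.048). The adjusted p rose to 0.14, 0.068 and 0.072 without input replicate 1, 2 or 3, to 0.12 and 0.15 without pulldown replicate 2 or 3, and to 0.061 with array weights. A second probe set listed for Pcna gave nearly the same values, with a difference of -0.15, and the gene has 2 named pseudogenes in the reference table, so its level is uncertain.

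The 3 genes of nucleotide supply took 3 courses. Tyms, thymidylate synthase, read 9.77, 9.63 and 9.78 in the input and 8.90, 8.93 and 8.97 in the pulldown, 1.74-fold lower (-0.80 ± 0.048, limma adjusted p = 5.5e-06). A named pseudogene exists for Tyms too. Rrm2, the small subunit of ribonucleotide reductase that is made in S phase, read 11.65, 11.63 and 11.67 in the input and 11.99, 12.03 and 11.98 in the pulldown, 1.28-fold higher (0.35 ± 0.030, adjusted p = 3.0e-05). Rrm1, the large subunit, read 12.39, 12.37 and 12.36 in the input and 12.45, 12.40 and 12.47 in the pulldown. Its difference of 0.06 (95% interval -0.01 to 0.13) did not pass and stood at -0.03 after cyclic loess.

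A wider list of 63 other genes of replication and nucleotide synthesis gave a background for these. Values were at hand for 61, of which 24 passed as higher and 18 as lower (median 0.0099, against 0.04 over all genes), with 22 higher and 28 lower after cyclic loess. The 68.9% called lay near the 72.6% of genes above the median level, where all but Dscc1 of the 61 lie. The 13 genes of origin firing and licensing control had 10 higher (76.9%) and 1 lower (7.69%), against 45.9% and 26.8% of the genes above the median level. Topbp1, the scaffold that brings firing factors together, was higher by 1.07 ± 0.026 and Ticrr (Treslin), its partner, by 1.04 ± 0.031 (limma adjusted p = 2.3e-07 and 3.1e-07). Rif1, which restrains late origins, was higher by 1.14 ± 0.048 (adjusted p = 1.0e-06). Cdc7 and Dbf4, the kinase and its activator, were higher by 0.73 and 0.85. These 2 partners moved together, unlike Cdc6 and Cdt1. Lrwd1, which associates with the origin recognition complex, was the single gene of this group called lower, at -0.18.

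Among 18 genes of fork progression and protection, 8 were higher (44.4%) and 6 lower (33.3%), near the 45.9% and 26.8% of genes above the median level. Clspn (claspin), an adaptor of the checkpoint at the fork, read 6.79, 6.73 and 6.72 in the input and 7.89, 7.84 and 7.83 in the pulldown, a difference of 1.11 ± 0.034 (limma adjusted p = 3.4e-07). Atad5, which unloads PCNA, was higher by 1.07 and Top2a by 1.23, while all 3 subunits of RNase H2, Rnaseh2a (-0.58), Rnaseh2b (-0.50) and Rnaseh2c (-1.30), were lower. The chromatin assembly factor split as the clamp loader did, with its large subunit Chaf1a higher by 0.61 and Chaf1b lower, at -0.46. Top2a had the largest positive and Rnaseh2c the largest negative difference of the wider list. The genes in these sentences other than Topbp1, Ticrr, Rif1, Clspn and Pold4 were picked after their values had been seen.

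Of the 13 genes that feed deoxynucleotides to the fork, 3 were higher (23.1%) and 7 lower (53.8%), against 45.9% and 26.8% of the genes above the median level. Nme2, a nucleoside diphosphate kinase, read 10.58, 10.61 and 10.49 in the input and 9.31, 9.34 and 9.39 in the pulldown, 2.31-fold lower (-1.21 ± 0.041, limma adjusted p = 4.7e-07). The deoxyguanosine kinase Dguok was lower, at -0.71 ± 0.037, and the thymidylate kinase Dtymk at -0.59 ± 0.033 (adjusted p = 2.6e-06 and 3.3e-06). Rrm2b, the damage-induced counterpart of Rrm2, was higher by 0.54. Of the 3 higher genes, Tk2 lost its call after cyclic loess. Of 17 genes of purine and pyrimidine synthesis, 3 were higher, 4 lower and 10 did not pass. After cyclic loess 2 were higher and 11 lower, Dhodh, Gart, Paics, Adsl, Atic, Gmps and Adssl1 being added, while Ppat lost its call (adjusted p = 0.4). The 2 largest differences were those of Cad, the enzyme that starts pyrimidine synthesis, at 0.89, and Pfas, of the purine pathway, at 0.81.

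**Figure D5:**
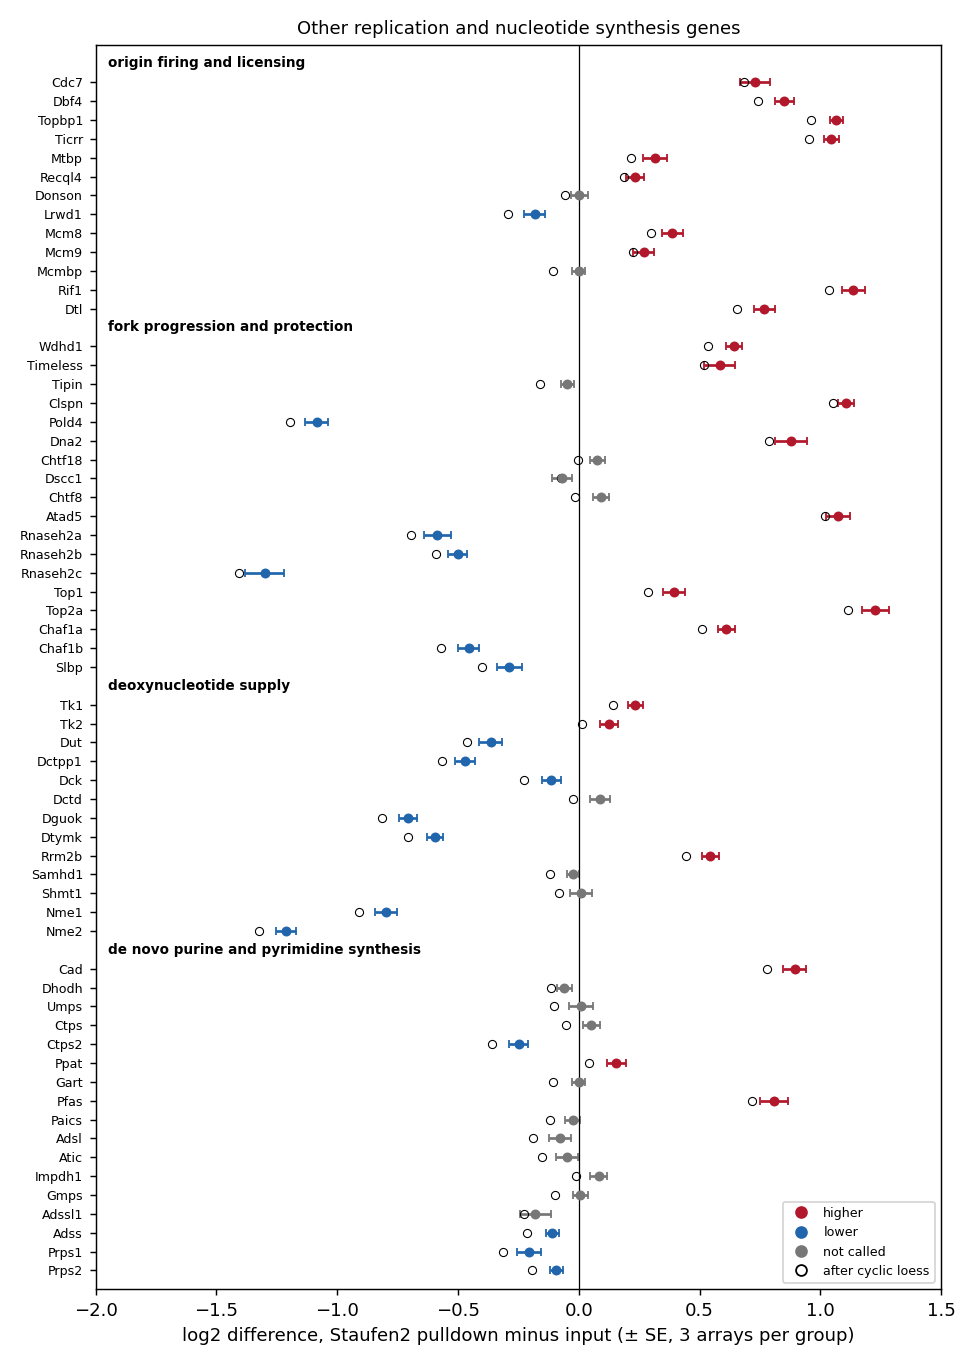
Log2 difference of pulldown minus input for 61 other genes of replication and nucleotide synthesis, by group (filled points with SE bars, 3 arrays per group, coloured by call; open circles, after cyclic loess). Genes of origin firing lie mostly to the right of 0 (10 of 13 called higher), and those of deoxynucleotide supply mostly to the left (7 of 13 called lower).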

How the data were processed

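RNA of 3 input and 3 Staufen2 pulldown samples was measured on arrays. The values deposited by the authors are log2 expression values per probe set, and RMA and limma are the tools listed, without versions, per the submitters' processing notes. The genome build is not given in the sources used here. The usual RMA procedure equalizes the arrays' distributions, so differences are relative. Of 35556 probe sets, 21789 had 1 gene symbol in the platform annotation, 1621 several and 12146 none. The brightest single-symbol probe set of each gene gave 19938 genes, and 19853 matched the RefSeq gene table (GRCm38.p6) by Entrez identifier.

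Differences come from limma 3.58.1 in R 4.3.3 (lmFit and eBayes, 2-sided, no covariates), with Benjamini-Hochberg adjustment over all genes and a threshold of 0.05. An exact permutation test of 3 against 3 arrays cannot go below 0.10. Array number limits the precision. The procedure was tested on simulated data. Groups came from the sample titles. Every replication gene may be named, with each array's values for the 6 largest called differences in each direction and the large subunits. Each array's values of Orc6, Cdt1, Mcm5, Gins3, Pole4, Lig1 and Rrm2 were added after they had been seen. From the wider list, the 4 smallest adjusted p per direction and Pold4 were named by rule.

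Members and lists were chosen with earlier results of these data known. Protein lengths, planned as a measure of subunit size, were not used here, so genomic span and textbook subunit size replaced them once values were known. The alternatives tried were a replicate block, an intensity trend, cyclic loess, centring on probe sets above the 75th percentile, a filter on dim genes, averaging all probe sets of a gene, array weights, a test against 1.2-fold and leaving out each array. Annotated spans of 19 of the 46 genes overlap another gene, and their probe sets may hold signal of both. In 12 of them an overlapping gene is coding, among them Rpa1 (Smyd4), Rfc4 (Eif4a2), Gins2 (Gse1), Pole2 (Klhdc1) and Pold2 (Aebp1). Pola1 and Pole overlap annotated genes that are not coding. Cells were lysed in bulk, so fewer cells with an RNA and less of it per cell cannot be told apart.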

Additional observations from a re-analysis of the deposited data

How the results depend on the processing

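Of the 32 replication genes called, 14 higher and 12 lower kept direction and call under all 13 alternatives other than the test against a 1.2-fold change. That test called 10 higher and 6 lower (wider list: 10 lower). Cyclic loess called 24 lower (wider list: 28 lower) and moved the median difference of the replication genes to -0.11, and centring on bright probe sets moved it to -0.065. Without each array in turn, 16 to 17 were higher and 12 to 15 lower, 22 to 26 and 16 to 18 in the wider list, and the median ran from -0.040 to 0.0071. The direction changed only in genes with small differences. After cyclic loess these were Gins1 (-0.0035), Pola2 (-0.0095), Pold3 (-0.092) and Rrm1 (-0.030), after centring Pold3 (-0.023) and with array weights Pold1 (0.0081). Leaving out 1 array turned Orc4 (-0.052 to 0.014), Mcm7 (-0.10 to 0.0075), Cdc45 (-0.062 to 0.0067), Gins1 (-0.048 to 0.12) and Pold1 (-0.023 to 0.021). With a replicate block, 17 were higher and 16 lower, Rpa2 being added (-0.12, limma adjusted p = 0.037). The deviations of same-numbered samples correlated at 0.02, 0.11 and -0.06, so the numbers were not taken as pairs. With the mean of both Rpa3 probe sets, the change of Rpa1 against the others was 1.5 in place of 1.61. The causes were not tested. Of the 46 genes, Gmnn alone lies below the median level, where signal can be background, as does Dscc1 in the wider list.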

Other observations

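Mcm7 holds 3 microRNA genes in its annotated span, which have probe sets of their own. Mir25 read 7.56, 7.55 and 7.47 in the input and 7.59, 7.55 and 7.49 in the pulldown, a log2 difference of 0.02 (limma adjusted p = 0.76). Mir93 stood at -0.07 (adjusted p = 0.56) and Mir106b at 0.08 (adjusted p = 0.25), both at levels where signal can be background. Like the host gene Mcm7, none of the 3 passed the test, and their groups overlapped. These genes were picked after the values had been seen.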
